A study of Mus musculus with 10 samples.

Results

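The kinesin motor genes are the genes whose symbols are Kif with a number and at most 1 letter, or Klc1 to Klc4, in the deposited table of normalised counts. The rule matched 42 symbols among 31510 rows, and 37 of them reached 10 or more in 5 or more of the 10 libraries and make up the set described here. These 37 stand among 17556 genes that passed the same filter. Every one of the 37 reached a value of 10 in at least 4 mice of each group, so none entered through 1 group alone. The 5 that did not pass were Kif2b, listed at 0 in every mouse, Kif12, at 0 in 8 mice and at 0.864 and 2.54 in AAV8-irisin mice 3 and 4, Kif18b (0.990 to 9.27), Kif2c (0.902 to 12.4) and Kif28 (0.662 to 11.1).

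The study measured polyadenylated RNA of the micro-dissected hippocampus by sequencing in 10 APP/PS1 males, from a transgenic strain that makes mutant human amyloid precursor protein and presenilin and deposits amyloid in the brain. At 8 months of age, 5 mice received AAV8-GFP and 5 received AAV8-Irisin-FLAG through the tail vein, called GFP mice and irisin mice from here on. AAV8 is a viral vector used here to make irisin in the liver, from where it enters the blood, and irisin is the secreted fragment of the membrane protein Fndc5. The tissue was taken 2 months later, and all mice carry the amyloid transgenes and a vector, so neither the disease nor the vector itself is compared. Libraries summed to between 35284321 and 36623029 normalised counts, of which kinesin genes held 0.733% to 0.806%.

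Kinesins are proteins that walk along microtubules by splitting ATP. In neurons they carry vesicles, mitochondria, RNA granules and cytoskeletal proteins from the cell body into axons and dendrites. In dividing cells other kinesins build the spindle, line up chromosomes and complete cytokinesis, and a few serve cilia. A mature hippocampus holds many neurons and few dividing cells. The 37 genes were therefore described in 5 groups by textbook role, with 15 transport motors, 4 kinesin light chains, 3 other kinesins, 6 cilium kinesins and 9 mitotic kinesins. In whole tissue, fewer cells of a type and less RNA per cell cannot be told apart.

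The markers of the labelled tissue were present. All 11 listed markers of hippocampal principal cells passed the filter, with summed values of 71277 to 75601 in GFP mice and 70009 to 74305 in irisin mice, and so did all 12 neuronal markers. Of 20 markers of proliferating cells 17 passed, and the other 3, Ccnb1, Aurkb and Bub1, stayed between 0.722 and 15.99. The choroid plexus borders the hippocampus, and its 8 tested markers of 12 summed to 943 to 1193 normalised counts in GFP mice and 1189 to 2989 in irisin mice. The upper end is irisin mouse 4 alone, and the other 4 irisin mice lay between 1189 and 1345. The gene Kl alone averaged 805 of a summed mean of 1100 in GFP mice and 867 of 1613 in irisin mice. Ttr ranged from 10.1 to 48.3 in GFP mice and from 12.3 to 1528 in irisin mice. All 8 had a higher mean log2 value in irisin mice. By limma 3 had an unadjusted p under 0.05, where 4.49% of all genes tested did, and 0 passed an adjusted p of 0.05. The 12 oligodendrocyte markers summed to 106938 to 143002 and 124044 to 148414. The part of either tissue in the kinesin values was not tested. The 17 proliferation markers summed to 938 to 1004 normalised counts in GFP mice and 962 to 1060 in irisin mice. Their summed mean was 972 and 1032, a gap about as large as that of 1 of these genes, Bub1b, at 67.3 ± 16.4 and 128 ± 26.3.

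No kinesin gene passed the test between the groups. By limma, 0 of 37 kinesin genes passed an adjusted p of 0.05, where 0 of the 17556 genes tested did, a background of 0%. At an unadjusted p under 0.05 the count was also 0 of 37, against 4.49% of all genes tested (2.28% of all genes with a higher and 2.21% with a lower mean in irisin mice). No kinesin gene had groups that did not overlap, against 0.803% of all genes. The smallest unadjusted p among the 37 was 0.0819 (adjusted p = 0.942 by limma), for Kif2a. The mean log2 value was higher in irisin mice for 18 kinesin genes and lower for 19, where 50.5% and 49.5% of all genes tested were, and the median log2 difference was −0.012 for the kinesins and 0.00099 for all genes.

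**Figure D1:**
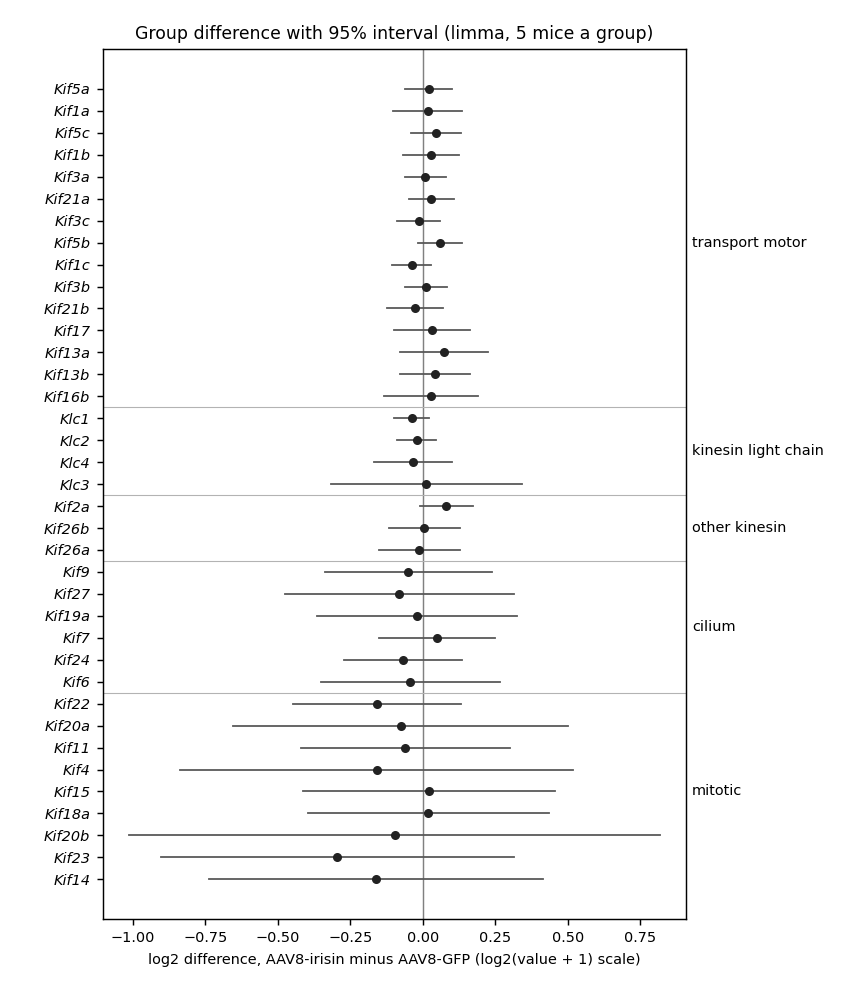
Log2 difference between irisin mice and GFP mice on the log2(value + 1) scale (x axis) for each of the 37 kinesin genes, with dots for the estimate and lines for its 95% interval by limma with 5 mice a group. Every interval includes 0, and intervals are narrow for the abundant transport motors and wide for the mitotic kinesins at the bottom.

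The precision of the measurement differed by role. The coefficient of variation between mice of 1 group had a median of 4.67% over transport motors, 4.74% over light chains, 16.4% over cilium kinesins and 28.6% over mitotic kinesins. For Kif5a the 95% interval of the change ran from −4.21% to 7.25%, while for the mitotic Kif20b it ran from −50.4% to 76.2%.

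Levels were compared between genes per kb of annotated exon. Kif5a led with 11711 ± 486 normalised counts per kb (SD, n = 10 mice), and Kif14 was lowest with 1.22 ± 0.333. Kif1a had 5324 ± 350 per kb, Klc1 5043 ± 138, Kif5c 4507 ± 211, Klc2 2101 ± 59.1 and Kif1b 1975 ± 102. In this order Kif5a, Klc1, Kif5c and Kif1b were each separated from the next gene in all 10 mice, while Kif1a overlapped Klc1, and Klc2 overlapped Kif1b. Kif3a, Kif21a, Kif3c and Kif5b followed at 1340, 1301, 1281 and 1171 per kb, and each of these overlapped its neighbour. Every mitotic kinesin except Kif22 (23.7 ± 3.87 per kb) had a mean below that of every cilium kinesin. Among the 17295 tested genes with an annotated length, Kif5a stood at percentile 99.7 and Kif14 at percentile 0.0925 for level per kb. Exon lengths join all annotated isoforms, so a gene with long unused exons is understated.

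**Figure D2:**
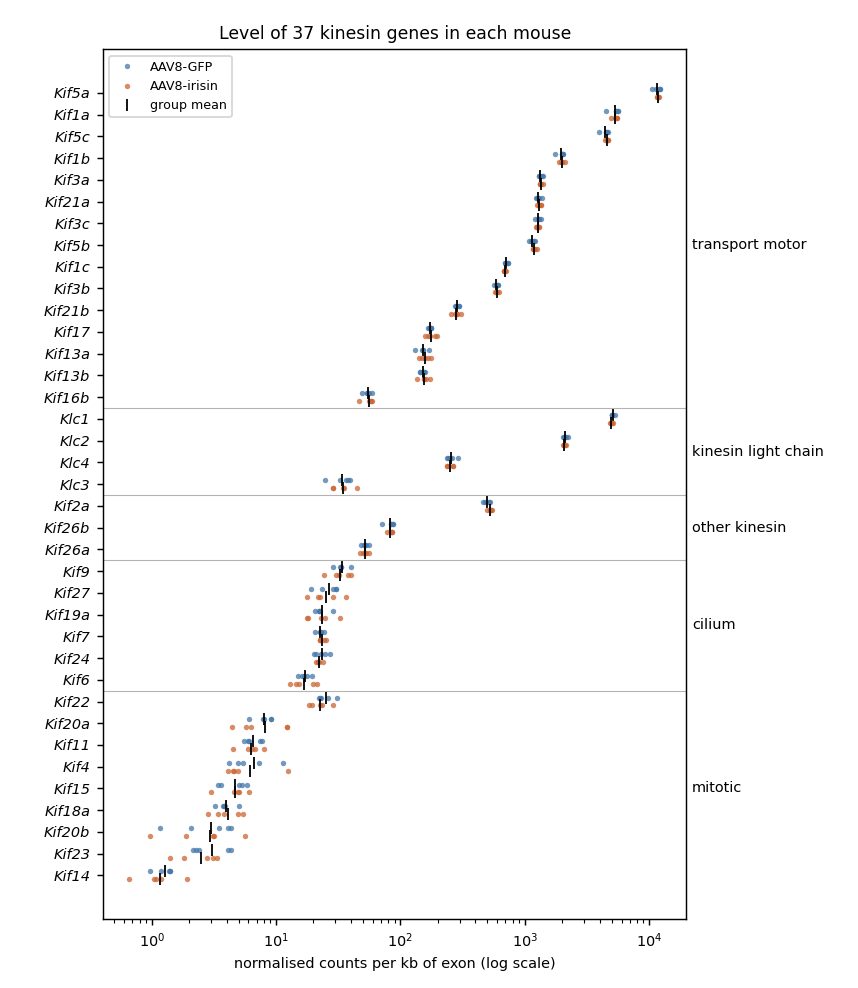
Normalised counts per kb of annotated exon (log x axis) for the 37 kinesin genes in each of the 10 mice, by role. Points are single mice, blue for GFP mice and orange for irisin mice, and black ticks are group means. Kif5a is at the top at 11711 per kb and Kif14 at the bottom at 1.22, and the colours overlap in every row.

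Kinesin-1, the motor that moves mitochondria and many vesicles along axons, is built from 2 kinds of chain, and its heavy chains are encoded by Kif5a, Kif5b and Kif5c. Kif5a (chromosome 10, 127225696 to 127263348, minus strand of mm10) had 73743, 79134, 85341, 83682 and 84949 normalised counts in GFP mice 1 to 5, and 81527, 81586, 81888, 82854 and 83917 in irisin mice 1 to 5. The irisin mice all lay inside the GFP range, and the log2 difference was 0.019 (standard error, SE, 0.038). Kif5c (chromosome 2, 49619298 to 49774778, plus strand), the second neuron-enriched heavy chain, had 28269, 32109, 33299, 32206 and 32612 in GFP mice and 33257, 32960, 31336, 32645 and 33206 in irisin mice. Its log2 difference was 0.046 (SE 0.041) and 0.0053 without GFP mouse 1, and the groups overlapped. Kif5b, the heavy chain made in nearly all cell types (chromosome 18, 6201002 to 6242174, minus strand), had 8634, 9408, 9120, 8995 and 9620 in GFP mice and 9340, 9490, 9224, 9927 and 9678 in irisin mice. For Kif5b 2 of 5 irisin mice exceeded every GFP mouse, and the log2 difference was 0.059 (SE 0.035, limma adjusted p = 0.942).

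The shares of the 3 heavy chain genes in heavy chain RNA were nearly constant between mice. Per kb of exon, Kif5a held 67.6% ± 0.548 of heavy chain RNA in GFP mice and 67.1% ± 0.470 in irisin mice (SD, n = 5 each). Kif5c held 25.8% ± 0.429 and 26.1% ± 0.469, and Kif5b 6.67% ± 0.285 and 6.80% ± 0.142. Over the 10 mice the share of Kif5a stayed between 66.6% and 68.0%, although its level ranged from 73743 to 85341.

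The kinesin light chains tie the heavy chains to cargo and hold the idle motor folded. Klc1 (chromosome 12, 111758849 to 111807844, plus strand) had 21820, 20571, 20561, 20636 and 20420 normalised counts in GFP mice and 20032, 20321, 20908, 20208 and 19760 in irisin mice. For Klc1 4 of 5 irisin mice fell under every GFP mouse. The log2 difference was −0.039 (SE 0.028), and the adjusted p was 0.942 by limma (exact two-sided permutation p = 0.111). Klc2 had 9233, 8369, 8716, 8842 and 8599 in GFP mice and 8402, 8671, 8604, 8610 and 8792 in irisin mice, a log2 difference of −0.022 (SE 0.031). The irisin mice of Klc2 lay within the GFP range. Klc4 had 687, 578, 601, 565 and 619 in GFP mice and 627, 566, 625, 568 and 587 in irisin mice, also with full overlap, and a log2 difference of −0.034 (SE 0.063). Klc3, the least abundant light chain here, ranged from 66.2 to 119 over the 10 mice. Per kb, Klc1 held 68.0% ± 0.427 of light chain RNA in GFP mice and 67.7% ± 0.532 in irisin mice.

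Kinesin-3 motors carry synaptic vesicle precursors and dense-core vesicles. Kif1a (chromosome 1, 93015464 to 93101951, minus strand), the main neuronal member, had 42083, 50225, 50747, 52174 and 52004 normalised counts in GFP mice and 50803, 49364, 45814, 51538 and 51963 in irisin mice. GFP mouse 1 was the lowest of the 10 mice, all irisin mice lay between the extremes of the other group, and the log2 difference was 0.016 (SE 0.055). Kif1b, whose isoforms carry mitochondria and synaptic vesicle precursors, ranged from 30624 in GFP mouse 1 to 37152 in irisin mouse 4. Kif1c, which moves vesicles and RNA in many cell types, had 5007, 5079, 5315, 5300 and 5101 in GFP mice and 5068, 4961, 5181, 4960 and 4937 in irisin mice. For Kif1c 3 of 5 irisin mice fell under every GFP mouse, and the log2 difference was −0.039 (SE 0.031, limma adjusted p = 0.942). Kif13a and Kif13b, which carry membrane receptors, and the endosomal motor Kif16b were less abundant, with means over both groups of 155, 154 and 55.0 per kb.

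Kinesin-2 joins Kif3a with Kif3b or Kif3c, and the adaptor protein encoded by Kifap3 binds its cargo. Per kb, Kif3a held 41.6% ± 0.626 of the 3 motors in GFP mice and 41.8% ± 0.563 in irisin mice, Kif3c 40.0% ± 0.897 and 39.6% ± 0.278, and Kif3b 18.4% ± 0.735 and 18.5% ± 0.305. Kifap3 itself had 9137 ± 246 normalised counts in GFP mice and 9322 ± 83.8 in irisin mice. Kif17, a dendritic motor linked to NMDA receptor transport, had 793 ± 20.98 and 812 ± 73.0 normalised counts. Kif21a and Kif21b, transport motors that restrain microtubule growth, had 8345 ± 389 and 8511 ± 259 for the first and 3488 ± 114 and 3427 ± 218 for the second.

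Over the 19 transport motors and light chains together, 13 had a higher mean log2 value in irisin mice and 6 a lower one, with a median log2 difference of 0.016 beside 0.00099 for all genes tested. Among these, 12 of 15 motors had a higher mean log2 value and 3 of 4 light chains a lower one. Of all genes tested, 50.5% had a higher and 49.5% a lower mean. The joint median was 0.0053 without GFP mouse 1, 0.0069 without irisin mouse 4, 0.0045 without irisin mouse 5 and 0.0301 without GFP mouse 4. Summed over the 19 genes, values were 253236 to 283239 in GFP mice and 269726 to 283066 in irisin mice.

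GFP mouse 1 stood apart for these genes. It was the lowest of the 10 mice for 7 of 15 transport motors, Kif1a, Kif1b, Kif5a, Kif5b, Kif5c, Kif3a and Kif3c, and the highest for 3 of 4 light chains, Klc1, Klc2 and Klc4. Against the mean of the 10 mice its log2 deviation was −0.24 for Kif1a, −0.19 for Kif5c, −0.18 for Kif1b and −0.15 for Kif5a, and 0.089 for Klc1 and 0.19 for Klc4. Without this mouse the group difference on the log2 scale was −0.0155 for Kif5a, −0.041 for Kif1a, 0.0378 for Kif5b, −0.0215 for Klc1, −0.0025 for Klc2 and 0.0093 for Klc4. Its median deviation was −0.047 over the motors and 0.14 over the light chains. The motors have a median exon length of 7.41 kb and the light chains 3.36 kb, but single members departed from this order. Kif3a, at 3.59 kb, is shorter than Klc1 and Klc2, at 4.07 and 4.13 kb. Most motors lay below the mean in GFP mouse 1, but the long Kif13b (13.02 kb) and Kif16b (9.07 kb) lay above it, at 0.023 and 0.032. In the same mouse, among 6708 genes with a mean value of at least 1000, the longest 20% by exon length (median 11.98 kb) had a median log2 deviation of −0.13 and the shortest 20% (median 2.36 kb) of 0.099. The gap between those ends was −0.23 in GFP mouse 1 and between −0.072 and 0.074 in the other 9 mice. The part of exon length in the kinesin values of this mouse was not tested.

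**Figure D3:**
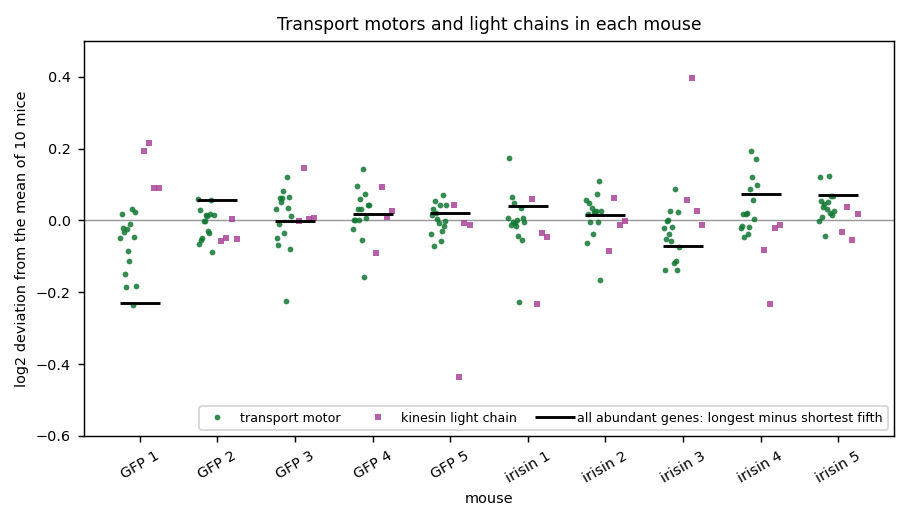
Log2 deviation from the mean of the 10 mice (y axis) of each transport motor (green circles) and kinesin light chain (purple squares) in each mouse (x axis), with a black bar for the gap between the longest and the shortest 20% of 6708 abundant genes. In GFP mouse 1 the bar lies at −0.23, most motors lie below 0 and all 4 light chains above 0.

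Kif2a, grouped here with the other kinesins, encodes a kinesin that takes microtubules apart from their ends and trims axon branches. It had 2936, 3387, 3079, 3317 and 3175 normalised counts in GFP mice and 3379, 3379, 3168, 3395 and 3476 in irisin mice. The groups overlapped, with 2 of 5 irisin mice exceeding every GFP mouse. The log2 difference was 0.081 (SE 0.043), with −0.012 to 0.17 as its 95% interval (exact two-sided permutation p = 0.0952). It was 0.053 without GFP mouse 1, the lowest of its group. Kif26a and Kif26b encode kinesins that do not move and act in signalling. Kif26a had 358, 365, 388, 354 and 337 in GFP mice and 363, 330, 360, 386 and 348 in irisin mice, a log2 difference of −0.012 (SE 0.065). Kif26b had 1051, 1283, 1244, 1280 and 1236 in GFP mice and 1139, 1232, 1254, 1230 and 1247 in irisin mice, with mouse 1 lowest in each group and a log2 difference of 0.0047 (SE 0.057). Both genes overlapped between groups.

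The cilium kinesins serve primary cilia, which most neurons carry, or the motile cilia of ependymal cells. Kif7 encodes a regulator of Hedgehog signalling at the cilium tip. Kif7 had 104, 111, 105, 94.2 and 104 normalised counts in GFP mice and 111, 103, 114, 103 and 104 in irisin mice, overlapping values with a log2 difference of 0.048 and a standard error of 0.093. Kif24, whose protein acts at the centriole and restrains cilium formation, had 162, 219, 184, 167 and 199 in GFP mice and 168, 191, 174, 174 and 176 in irisin mice. All irisin mice fell inside the GFP range, and the log2 difference was −0.069 (SE 0.095). Leaving out single mice moved the Kif24 value between −0.115 without GFP mouse 1 and −0.0083 without GFP mouse 2. Kif27, a relative of Kif7 needed for motile cilia, had 158, 100, 159, 122 and 151 in GFP mice and 148, 92.4, 113, 191 and 117 in irisin mice, a log2 difference of −0.081 (SE 0.18). Kif9, a kinesin of motile cilia and the most abundant of this group per kb at 33.3 ± 4.95, had 172, 144, 125, 143 and 141 in GFP mice and 162, 104, 171, 139 and 130 in irisin mice. Its log2 difference was −0.051 (SE 0.13). Kif27 and Kif9 overlapped between groups, and both were lowest in irisin mouse 2. Of the 6 cilium kinesins 5 had a lower mean log2 value in irisin mice, with a median log2 difference of −0.048. That median was 0.0383 without irisin mouse 2, −0.120 without irisin mouse 1, −0.0144 without irisin mouse 3, and −0.0284 and −0.0301 without GFP mice 1 and 2.

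The mean log2 value of 11 of 12 ependymal markers was higher in irisin mice, and that of 5 of 6 cilium kinesins was lower. Among all genes tested, 50.5% had a higher and 49.5% a lower mean. The summed ependymal markers were 513 to 1100 in GFP mice and 792 to 1128 in irisin mice. The lower end is GFP mouse 3 alone, and the other GFP mice lay between 804 and 1100. The difference of the markers without this mouse was not tested. Across the 10 mice Kif9 had a Pearson r of 0.51 with the mean log2 of the ependymal markers (permutation p = 0.137, adjusted p = 0.957 over 15 relations), the highest of the 6 cilium kinesins, and a Spearman rho of 0.52 (permutation p = 0.133, adjusted p = 0.662). Without GFP mice 2 and 3, the farthest from the median of the markers, r was 0.62. Kif24 had a negative relation, larger in rank terms than that of Kif9, with a Pearson r of −0.43 (permutation p = 0.214, adjusted p = 0.957) and a Spearman rho of −0.72 (permutation p = 0.0242, adjusted p = 0.330). Its r was −0.48 without the same GFP mice. With deviations from group means the rho of Kif9 was the larger in size, at 0.68 (permutation p = 0.0339). That of Kif24 was then −0.64 (permutation p = 0.0539), and each had an adjusted p of 0.270. For the other 4 cilium kinesins r lay between −0.29 for Kif6 and 0.038 for Kif19a. None of the 15 relations passed the adjusted threshold.

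The mitotic kinesins drive spindle assembly, chromosome movement and cell separation, and their genes are known to be transcribed mainly late in the cell cycle. Many such promoters are known to carry an element called CHR, whose letters are TTTGAA, often near a CCAAT box, through which the genes are kept off in cells that do not divide. RefSeq promoter windows of 250 bases before to 50 after the start site (GRCm38.p6, the assembly of mm10) were on hand for 34 of the 42 symbols. They include Kif18b, Kif2b and Kif2c, mitotic kinesins that did not pass the filter, and lack Kif20a, Kif5a and Kif5b. The windows had a median GC content of 59.7% for mitotic kinesins, 69.3% for transport motors and 52.7% for all genes. The part of GC content in the counts below was not tested. The letters TTTGAA occurred on either strand in 9 of 11 mitotic promoters, or 81.8%, and in 1 of 11 transport motor promoters, or 9.09%, where 20.2% of 27025 genes had them. Within 50 bases of the start site they occurred in 7 of 11 mitotic genes (63.6%), against 5.72% of all genes. Of the transport motors only Kif1a had a match, in a second start site and not in its first. The 3 mitotic promoters with the match just before the start site are shown with the first windows of Kif5c and Kif1a, abundant transport motors, for contrast. Capitals mark TTTGAA or CCAAT on either strand, which read TTCAAA and ATTGG where they lie on the other strand, and the last base shown is the one before the start site.
Kif11: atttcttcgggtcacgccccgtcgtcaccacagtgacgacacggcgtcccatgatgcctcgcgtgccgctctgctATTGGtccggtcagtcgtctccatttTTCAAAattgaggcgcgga
Kif15: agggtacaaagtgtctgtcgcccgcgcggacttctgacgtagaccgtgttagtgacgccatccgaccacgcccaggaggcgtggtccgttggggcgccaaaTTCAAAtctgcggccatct
Kif22: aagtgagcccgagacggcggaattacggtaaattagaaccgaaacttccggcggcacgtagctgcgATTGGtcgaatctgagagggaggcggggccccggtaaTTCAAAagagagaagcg
Kif5c: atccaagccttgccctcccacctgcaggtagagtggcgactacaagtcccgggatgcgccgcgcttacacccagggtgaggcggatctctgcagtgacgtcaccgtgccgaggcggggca
Kif1a: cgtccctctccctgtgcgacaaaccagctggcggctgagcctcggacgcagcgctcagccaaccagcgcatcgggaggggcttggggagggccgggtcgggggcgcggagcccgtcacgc

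These windows lie at chr19:37376262-37376381 for Kif11 and chr9:122950961-122951080 for Kif15, both on the plus strand, and chr7:127042421-127042540 for Kif22 on the minus strand. Those of the transport motors lie at chr2:49619166-49619285 for Kif5c on the plus strand and chr1:93101875-93101994 for Kif1a on the minus strand. The match begins 19 bases before the start site in Kif11 and Kif15 and 17 bases before it in Kif22. In Kif11 a CCAAT box on the other strand begins 45 bases before the start site, and in Kif22 it begins 54 bases before. In Kif23, Kif18b, Kif20b and Kif4 the letters TTTGAA begin 3, 4, 8 and 20 bases from the start site in the transcribed part. CCAAT was found in 63.6% of mitotic promoters and 27.3% of transport motor promoters, where 41.1% of genes had it. It was also found in 3 of 5 cilium promoters (60%), 2 of 3 light chain promoters (66.7%) and 1 of 4 promoters of other kinesins (25%). So CCAAT did not set the mitotic kinesins apart from the cilium kinesins and light chains. The GC box GGGCGG was found in 54.5% of mitotic and 81.8% of transport motor promoters, where 38.2% of genes had it. TTTAAA was found in 18.2% and 0%, where 14.9% of genes had it, and TATAAA in 9.09% of each, where 15.7% had it. The letters GTTGCC, part of the X-box of cilium genes, were found in 2 of 5 cilium promoters (40%), 5 of 11 transport motor promoters (45.5%), 1 of 3 light chain promoters (33.3%) and 2 of 11 mitotic promoters (18.2%), where 14.1% of genes had them. The 5 transport motors with GTTGCC were Kif16b, Kif17, Kif1a, Kif3a and Kif3c, and Kif1a had the match only in its second start site. Each gene was given 1 role, so a transport motor that also serves cilia is not counted among the cilium kinesins. A match of letters is a description and not a binding site.

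**Figure D4:**
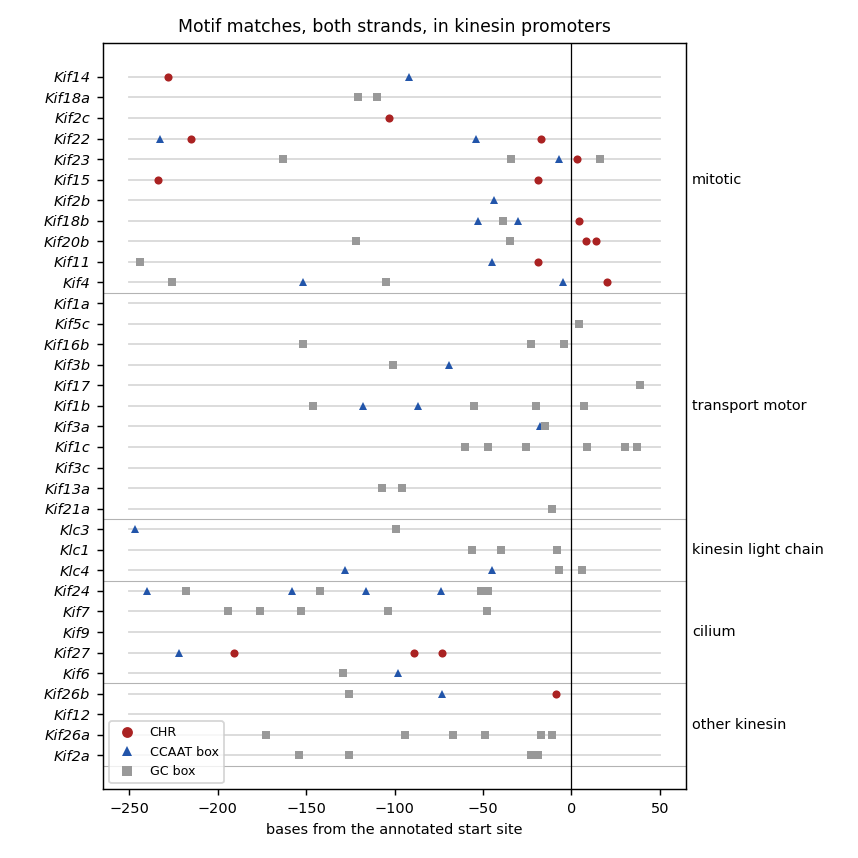
Positions of CHR (red circles), CCAAT box (blue triangles) and GC box (grey squares) letters on either strand, in bases from the start site (x axis), in the first RefSeq window of each kinesin gene. Red circles gather within 50 bases of the start site in the mitotic kinesins, and Kif26b is the single other gene of this plot with one there.

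The mitotic kinesins were low in every mouse and variable between mice. Kif22, a chromosome-arm motor and the most abundant of them (chromosome 7, 127027729 to 127042471, minus strand), had 112, 129, 152, 111 and 109 normalised counts in GFP mice and 140, 111, 89.7, 115 and 95.2 in irisin mice. For Kif22 2 of 5 irisin mice fell under every GFP mouse, and the log2 difference was −0.16 (SE 0.14). It was −0.0784, −0.0897 and −0.248 without GFP mouse 3, irisin mouse 3 and irisin mouse 1. Kif23, a subunit of the complex that organises the midzone in cytokinesis (chromosome 9, 61915905 to 61946774, minus strand), had 32.7, 34.5, 17.1, 17.97 and 19.1 in GFP mice and 21.8, 11.2, 24.6, 26.4 and 14.3 in irisin mice. Its log2 difference was −0.30 (SE 0.28, limma adjusted p = 0.942), and the groups overlapped. That of Kif23 was −0.175, −0.156 and −0.121 without GFP mouse 1, GFP mouse 2 and irisin mouse 2. Kif20a, which acts with Kif23 in cytokinesis, had 34.5, 39.8, 39.6, 34.4 and 26.4 in GFP mice and 53.4, 27.2, 53.5, 24.8 and 19.2 in irisin mice. The irisin mice divided for Kif20a, with 2 above and 2 below the whole GFP range, and the log2 difference was −0.077 (SE 0.27). Kif14, also a cytokinesis kinesin and the lowest of the 37 genes, had 9.99, 14.1, 12.4, 14.6 and 14.6 in GFP mice and 19.8, 11.2, 10.7, 12.3 and 6.87 in irisin mice. The irisin mice held both its highest and its lowest value, and the log2 difference was −0.16 (SE 0.27).

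Kif11, the motor that pushes spindle poles apart, had 48.9 ± 7.32 normalised counts in GFP mice and 47.2 ± 9.44 in irisin mice, and Kif15, which can share that task, had 51.1 ± 11.7 and 52.0 ± 12.2. Kif18a, which damps chromosome movement, had 38.9 ± 6.57 and 40.1 ± 10.5. Kif4, a chromosome-bound kinesin on the X chromosome, had 36.7 ± 16.1 and 33.8 ± 19.6. Kif20b ranged from 6.77 to 39.3, with both ends in irisin mice.

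**Figure D5:**
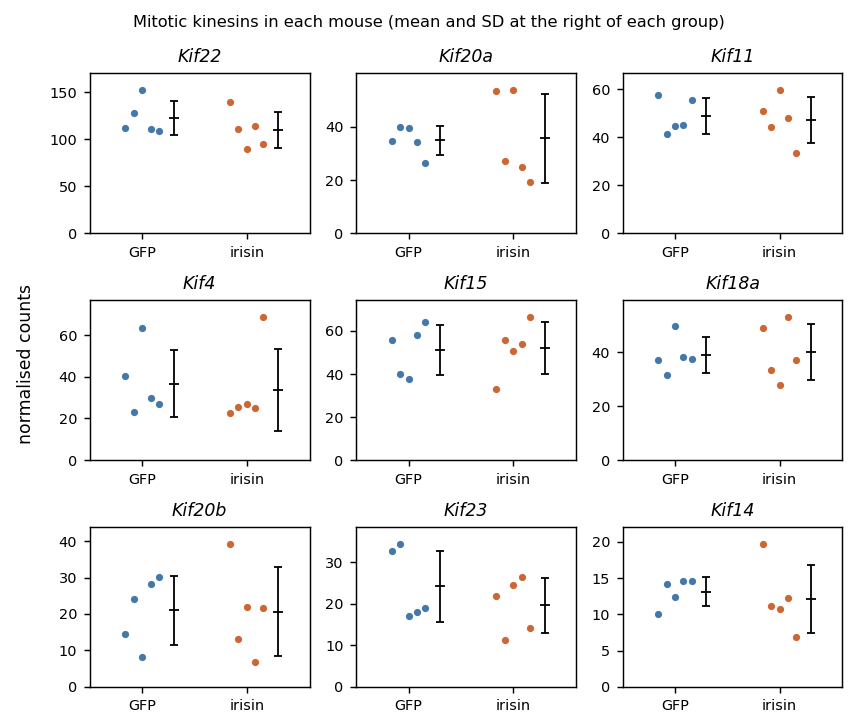
Normalised counts (y axis, from 0) of the 9 mitotic kinesins in each mouse, with GFP mice in blue and irisin mice in orange, and the group mean with its SD beside the points. The groups overlap in every panel, and the single high points of Kif4 are 63.2 in GFP mouse 3 and 68.7 in irisin mouse 5.

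Of the 9 mitotic kinesins 7 had a lower mean in irisin mice on the log2 scale, where 49.5% of all genes tested did. Their median log2 difference was −0.097 beside 0.00099 for all genes tested. The median was −0.248 without irisin mouse 1 and −0.0433 without irisin mouse 2. Their summed values were 377 to 424 in GFP mice and 333 to 429 in irisin mice. Among the markers of proliferating cells, 11 of 17 had a higher mean log2 value, where 50.5% of all genes tested did, with a median log2 difference of 0.10. The SE of single genes had a median of 0.27 over these kinesins and 0.19 over these markers, larger than either median difference. It is not the error of a median over a list. The median over the 9 kinesins varied between mice of a group with an SD of 0.16 on the log2 scale. Whether the 2 lists differ was not tested. Of the 17 markers 2, Cenpe and Bub1b, had a limma unadjusted p under 0.05, where 4.49% of all genes tested did. Cenpe, the kinesin of the kinetochore whose symbol the rule does not match, had 84.1 ± 28.5 normalised counts in GFP mice and 53.1 ± 22.3 in irisin mice. Its log2 difference of −0.68 did not pass (limma unadjusted p = 0.0301, adjusted p = 0.942, exact two-sided permutation p = 0.0952), and the groups overlapped. The spindle checkpoint gene Bub1b went the other way, with a log2 difference of 0.93 (SE 0.19) and all 5 irisin mice above every GFP mouse. Its limma unadjusted p of 0.000185 was the smallest of the 17556 genes tested, with an adjusted p of 0.942 (exact two-sided permutation p = 0.00794). Kifc1, a spindle kinesin outside these markers whose symbol the rule also does not match, differed little. It had 41.5 ± 18.4 normalised counts in GFP mice and 42.0 ± 13.1 in irisin mice, a log2 difference of 0.052 (SE 0.27). Across the 10 mice the Pearson r of the mitotic kinesins with the mean log2 of the proliferation markers ranged from −0.50 for Kif20a to 0.37 for Kif18a. For Kif20a the permutation p was 0.150 (adjusted p = 0.957 over 15 relations), with a Spearman rho of −0.66 (permutation p = 0.0440, adjusted p = 0.330). Without GFP mouse 5 and irisin mouse 4, the farthest from the median of the markers, r for Kif20a was −0.28, and that of Kif23 went from −0.21 to −0.82.

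The partners of kinesins and the opposing motor were taken from lists of related genes. The list of kinesin partners and cargo adaptors also holds Kifc1, Kifc2 and Kifc3, which are kinesin motors whose symbols the rule does not match. Of its 25 symbols 24 were tested, and Kifbp, another name of the listed Kif1bp, was not found. By limma 0 passed the adjusted threshold, and 1 had an unadjusted p under 0.05, a share close to the 4.49% of all genes tested. That gene was Mapk8ip3, which encodes the scaffold JIP3 that links kinesin-1 to vesicles and to dynein. It had 21632, 21967, 22881, 22320 and 21814 normalised counts in GFP mice and 20964, 20089, 20760, 20999 and 21137 in irisin mice. For Mapk8ip3 each of the 5 irisin mice fell under every GFP mouse, a separation found in 0.803% of all genes tested. The log2 difference was −0.090 (SE 0.027), with limma p-values of 0.0053 unadjusted and 0.942 adjusted, so the gene did not pass (exact two-sided permutation p = 0.00794, the smallest this design can give). Mean log2 values were higher for 11 genes of the list and lower for 13, and its median log2 difference was −0.013. Of 21 genes of dynein and dynactin, the motor complex that walks toward the cell body, 0 passed and 0 had an unadjusted p under 0.05, where 4.49% of all genes tested did, with mean log2 values higher for 8 and lower for 13 and a median of −0.018. The smallest p there was that of the intermediate chain gene Dync1i2 (0.0804, adjusted p = 0.942 by limma), with 4766 ± 95.04 and 4958 ± 107 normalised counts.

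Of the 37 genes 16 share exon bases with another annotated gene, 3 on the same strand and 14 on the opposite one, counting 1 gene in both. Kif17 shares exon bases with Sh2d5 on its own strand, and Klc1, Klc3, Kif20a, Kif18a, Kif4 and Kif2a overlap Xrcc3, Ercc2, Cdc23, Mettl15, Pdzd11 and Dimt1 on the other. No source used here says how the counting handled strand, so these values are uncertain to that extent.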

How the data were processed

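Hippocampal messenger RNA of 10 mice was sequenced after capture on oligo(dT) beads and library preparation with the NEBNext Ultra kit, per the labels' protocols. The authors deposited 1 table with a signal per gene and mouse that is never negative, called DESeq2 normalised counts in the file's name. The submitters' processing notes name bcl2fastq 2.17, DESeq2 and mm10; which aligner, counter and annotation served is not given in the sources used here. In each library 49.5% to 72.3% of the low entries fell within 0.1 of a multiple of what 1 read is worth, so whole reads were not recovered, no count test was run, and depth in reads is unknown.

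Values were taken as log2(value + 1). Genes with at least 10 in at least 5 of 10 libraries (17556) were fitted with limma 3.58.1 in R 4.3.3 (group as factor, trend in the prior variance, two-sided, Benjamini-Hochberg over all genes tested, threshold 0.05), which was tested on simulated data. Differences are AAV8-irisin minus AAV8-GFP. Single genes were also tested by exact permutation over mice, and correlations by 100000 resamples with scipy 1.17.1. Exon lengths and positions are from GENCODE M21 on mm10, matched by symbol for 42 of 42. Members, roles and lists were chosen with earlier results of these data known. Given with values per mouse were, in each role, the 3 genes of smallest p and the 2 of highest level per kb, 19 in all. Of the partner and dynein lists, genes with an unadjusted p under 0.05 or else the one of smallest p were named. Kifap3, Kifc1, Cenpe and Bub1b were chosen after their values were seen. Kifc2, Kifc3, Kif1bp and Kifbp were named only to describe their list. Each title names its own mouse, so tests weigh differences against variation from mouse to mouse. Samples were grouped by the labels' titles, and all 10 were used. Alternatives were other pseudocounts, filters, scalings, weights and priors, leaving out each mouse, and a block on mouse number.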

Additional observations from a re-analysis of the deposited data

Results flagged for a closer look

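Of 74 groups of 5 values, 2 for each of the 37 genes, 8 held a mouse whose gap to the nearest other mouse exceeded 0.71 of the group's range, where chance gives about 1 in 20. AAV8-GFP mouse 1 accounts for 5 of them. It had the lowest value of its group for Kif1a, at 42083 with the others from 50225 to 52174, for Kif1b, at 30624 with the others from 35012 to 35796, for Kif5c, at 28269 with the others from 32109 to 33299, and for Kif26b, at 1051 with the others from 1236 to 1283. It had the highest value for Klc1, at 21820 with the others from 20420 to 20636. These genes share a library, so the flags are not independent. In AAV8-irisin, Kif26b was lowest in mouse 1, at 1139 with the others from 1230 to 1254, and Kif4 was highest in mouse 5, at 68.7 with the others from 22.8 to 27.1. Kif19a was highest in AAV8-GFP mouse 2, at 116 with the others from 83.2 to 91.9.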

How the results depend on the processing

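In all 19 alternatives, leave-outs of single mice included, 0 kinesin genes passed the adjusted threshold. Among all genes 0 passed in each, except that without a filter on low values 1 of 26538 did, Gm49383, at 0 in all AAV8-irisin mice and 2.66 to 13.9 in AAV8-GFP. Kif2a had an unadjusted p of 0.0320 without AAV8-GFP mouse 2 and 0.0385 without AAV8-irisin mouse 3. Leaving out single mice, median log2 differences ranged from −0.248 to −0.0433 for mitotic, 0.0045 to 0.0301 for transport and −0.120 to 0.0383 for cilium kinesins. With array quality weights the signs of Kif5a (−0.0027), Kif1a (−0.0166) and Kif26b (−0.0321) turned, and with quantile normalisation that of Kif26b (−0.0047). Leaving out single mice turned further signs, with ranges of −0.0155 to 0.0372 for Kif5a, −0.041 to 0.0465 for Kif1a, −0.0614 to 0.0093 for Klc4, −0.0478 to 0.0294 for Kif26b, −0.0404 to 0.0161 for Kif26a, −0.125 to 0.0529 for Kif9, −0.2244 to 0.0362 for Kif27, −0.2505 to 0.1086 for Kif20a and −0.3431 to 0.0071 for Kif14. Values kept their sign but moved by over 1.5 times for Kif5b (0.0378 to 0.0768), Kif5c (0.0053 to 0.0644), Klc1 (−0.0506 to −0.0215), Klc2 (−0.038 to −0.0025), Kif2a (0.0528 to 0.1043), Kif7 (0.0143 to 0.0733), Kif24 (−0.1153 to −0.0083), Kif22 (−0.2475 to −0.0784) and Kif23 (−0.4136 to −0.1213). The cause was not tested. Mice of the same number did not deviate together (r of −0.0891 to 0.0297 over 5 pairs, 0 of which correlated best with their own number), and with the replicate block 0 of 37 kinesins passed. The analysis on whole reads was not run. With deviations from group means, 0 of 15 marker relations passed, as with the values. Low values limit the mitotic kinesins.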
